A study of Caenorhabditis elegans with 26 samples.

Results

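The genes described here encode insulin-like peptides, the insulin receptor DAF-2 and its receptor-like relatives in whole larvae of the nematode Caenorhabditis elegans. They were chosen by name alone: every gene whose WormBase name is ins or irld with a number, plus daf-28 and daf-2. This gave 93 of the 20182 genes in the count table, namely 39 peptide genes including daf-28, 53 irld genes and daf-2. The name irld-35 stands under 2 WormBase identifiers, so the members carry 92 distinct names. The genes irld-12, irld-27 and irld-51 were not analysed here.

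Insulin-like peptides are small secreted hormones, made largely by neurons and also by the intestine and other tissues. They act on DAF-2, a receptor tyrosine kinase whose signal passes through a phosphoinositide kinase and the AKT kinases and keeps the transcription factor DAF-16 out of the nucleus. Through this pathway food and crowding decide between reproductive growth and arrest as a dauer larva, and some peptides act as agonists while others act as antagonists. The irld genes encode proteins with the ligand-binding L domain known from the receptors for insulin and epidermal growth factor but without the kinase of DAF-2, and the function of most of them is not known.

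Total RNA depleted of ribosomal RNA was sequenced from whole worms of the wild-type strain N2 in 2 time courses begun with larvae that had hatched overnight from eggs. For the NA22 course, larvae fed on the bacterium NA22 on 2% NGM plates rich in peptone, and 10 libraries cover 18 to 36 h at steps of 2 h. For the OP50 course, larvae fed on the bacterium OP50 on 2% NGM plates, and 16 libraries cover 21 to 36 h at steps of 1 h. The labels place the OP50 harvests 1 h after the title times. All times below are title times. No time was sampled more than once, so every p-value rests on how single libraries scatter around a fitted curve or between paired times. Bacterium, medium and the growth of the culture changed together between the courses, and their parts cannot be told apart. In whole worms, fewer cells of a type and less RNA per cell cannot be told apart either.

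Library totals ran from 22587893 to 36083371 counts in the NA22 course and from 16241561 to 29911888 counts in the OP50 course. Levels are given as CPM, counts scaled to a TMM-adjusted library total of 1e6. A gene with no count in a library could still hold 3 counts, which is 0.0932 to 0.186 CPM depending on the library and covers counting error only. Markers of neurons, intestine, skin, germline and muscle were all present. The summed CPM of 11 neuron genes ran from 236.8 to 599.4 in the NA22 course and from 217.8 to 503.5 in the OP50 course. That of 4 muscle genes ran from 8837 to 14010 in the NA22 course and from 4399 to 8904 in the OP50 course. The 5 sperm markers summed to 0.330 to 444.4 CPM in the NA22 course and to 1.52 to 349.1 CPM in the OP50 course, and all 5 rose with time in both.

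Many of the members were expressed too little to be tested in whole worms. A gene was tested in a fit if 3 or more libraries held at least 10 of its counts after scaling to the median library size. Of the 93 members, 40 passed in the NA22 course, 41 in the OP50 course, 37 in both and 49 in neither. Among the 39 peptide genes, 24 passed in the NA22 course and 22 in the OP50 course. Among the 53 irld genes, 15 passed in the NA22 course and 18 in the OP50 course, and daf-2 passed in both. The 34 irld genes that passed in neither course had between 0 and 157 counts over all 26 libraries together, with a median of 26.5. The 15 such peptide genes had between 1 and 130 counts, with a median of 34. Both irld-35 genes and irld-32 had no count in any library.

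Many members lie next to each other. In the WBcel235 annotation, 46 of the 93 members stood directly beside another member, in 15 runs of 2 to 7 genes. The longest run holds 7 irld genes on chromosome II, and the longest peptide run holds ins-2, ins-3, ins-4, ins-5 and ins-6, also on chromosome II. Of the irld genes, 24 lie on chromosome V, 12 on II, 9 on IV, 5 on III and 3 on X, whereas 15 peptide genes lie on II and 10 on I. The 24 irld genes beside another member had a median of 33.5 counts over all libraries and 4 of them passed the filter in each course. The 29 that stood beside no other analysed member had a median of 103 counts, and 11 passed in the NA22 course and 14 in the OP50 course. They include irld-48, which lies beside irld-51, a gene not analysed here. These counts describe place and level and carry no test. Reads shared between near-identical neighbours can be split or lost in counting, and how they were counted is not given in the sources used here.

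Genes were ranked by mean CPM over the 26 libraries per 1000 bases of coding sequence, the only scale on which different genes are set beside each other here. ins-27 led with 100.3, followed by daf-2 with 22.5, ins-30 with 21.1, ins-17 with 17.1, ins-33 with 16.8 and ins-35 with 16.1. The best expressed irld gene was irld-3, at 13.03, followed by irld-14 at 9.32 and irld-1 at 6.29. On the CPM scale the 39 peptide genes summed to between 61.4 CPM, at 36 h, and 123.6 CPM, at 18 h, in the NA22 course. The OP50 sums ran from 65.7 CPM, at 36 h, to 111.3 CPM, at 23 h. ins-27 alone made up a median of 32.7% of that sum in the NA22 course and 28.8% in the OP50 course. The 53 irld genes summed to between 6.73 CPM, at 26 h, and 97.2 CPM, at 36 h, in the NA22 course, and to between 8.40 CPM, at 23 h, and 127.4 CPM, at 34 h, in the OP50 course.

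**Figure D1:**
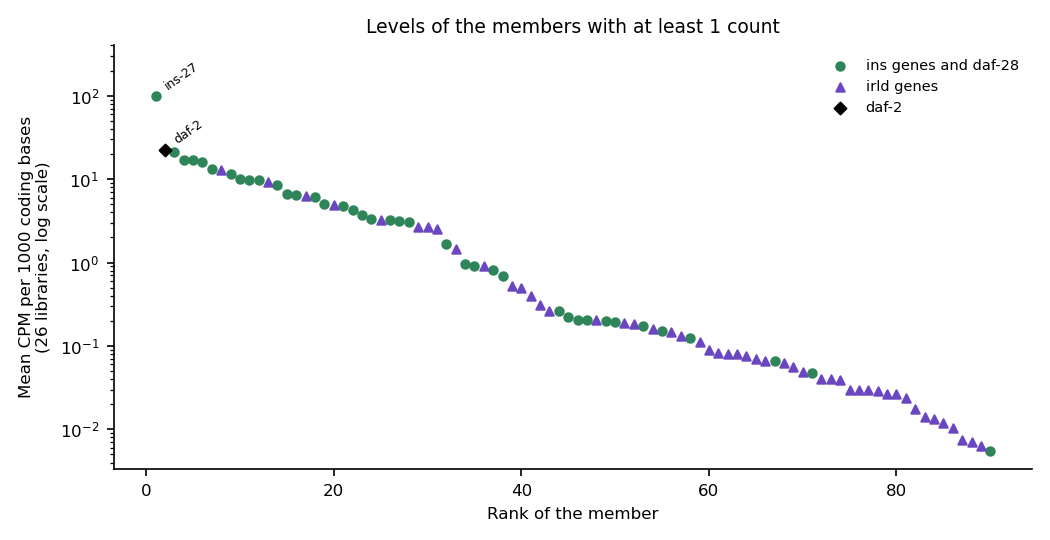
Each point is 1 of the 90 members with at least 1 count. The vertical axis is the mean CPM over the 26 libraries per 1000 coding bases on a log scale, and the horizontal axis is the rank of the member. ins-27 stands at 100.3 and daf-2 at 22.5, and most irld genes lie in the lower ranks.

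The receptor gene daf-2 was expressed throughout both courses. Its level ran from 110.3 CPM through a median of 148.4 to 196.8 CPM in the NA22 course and from 78.9 CPM through a median of 113.2 to 177.9 CPM in the OP50 course. The 2 ranges overlapped widely. A cycle of 8 h was tested by fitting a cosine and sine beside linear time, and a gene was called oscillating at an adjusted p under 0.05 if the fitted peak stood 1 or more log2 units above the trough. This peak-to-trough difference was 0.45 ± 0.10 (log2, standard error of the fit, n = 10 libraries) for daf-2 in the NA22 course and 0.82 ± 0.13 (n = 16) in the OP50 course. Its edgeR quasi-likelihood adjusted p was 0.021 in the NA22 course and 0.00046 in the OP50 course, so the cycle passed the test for p in both courses but stayed under the minimum size. Over 15 h its fitted change was -0.56 ± 0.09 (log2, adjusted p = 0.000895) in the NA22 course and -0.04 ± 0.15 (adjusted p = 0.836) in the OP50 course, and neither reached the minimum of 1.

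Of the irld genes, 9 rose steeply toward the end of both courses: irld-1, irld-3, irld-4, irld-6, irld-7, irld-8, irld-14, irld-18 and irld-57. A gene was called rising or falling if linear time had an adjusted p under 0.05 and the fitted change over 15 h was 1 log2 unit or more. In each course 9 irld genes were called rising, of 15 tested in the NA22 course and 18 tested in the OP50 course, and they were the same 9. Over all genes tested, 16% were called rising in the NA22 course, 21.1% in the OP50 course and 15% in both. Most of these 9 genes entered the test through their late libraries, so their share among the tested irld genes is a description and supports nothing. The other 44 irld genes were either not tested in both courses or not called rising in both.

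irld-3 had no count in the 5 NA22 libraries from 18 to 26 h, then 0.693 CPM at 28 h, 2.90 at 30 h, 11.6 at 32 h, 16.9 at 34 h and 17.9 CPM at 36 h. In the OP50 course it had no count from 21 to 23 h, 0.124 CPM at 24 h, 2.04 at 27 h, 7.46 at 29 h, 16.9 at 31 h and between 24.5 and 29.5 CPM from 33 to 36 h. The late libraries thus stood far above all early ones in both courses. With counts pooled over 4 late and 4 early libraries, irld-3 had 1300 counts at 30 to 36 h and 0 counts at 18 to 24 h in the NA22 course. The same gene had 2481 counts at 33 to 36 h and 2 counts at 21 to 24 h in the OP50 course, a ratio of 1120 with a 95% counting interval of 309.7 to 9254.

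irld-14 reached the highest CPM of the 9 in the NA22 course. It had 1.84, 9.59, 20.0 and 22.4 CPM at 30, 32, 34 and 36 h in the NA22 course, against 0, 0.033, 0.0872 and 0.169 CPM at 18, 20, 22 and 24 h. Its pooled late level was 214-fold its early level in the NA22 course (interval 103.6 to 533.2), and in the OP50 course 1935 late counts stood against 1 early count (ratio 1747, interval 313.2 to 69040). For irld-8 the fold was 56.5 (35.1 to 97.4) in the NA22 course and 133.5 (76.2 to 258.8) in the OP50 course. The genes irld-1 and irld-6 had a measurable early level and rose by smaller folds. Late over early, irld-1 was 34.2-fold higher (22.4 to 55.0) in the NA22 course and 23.5-fold higher (16.9 to 33.6) in the OP50 course. The corresponding folds of irld-6 were 19.7 (14.4 to 27.7) in the NA22 course and 25.3 (18.7 to 35.2) in the OP50 course.

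The 4 other genes stayed below 10 CPM in every library. In the 4 late NA22 libraries irld-4, irld-18 and irld-57 had 270, 237 and 396 counts and irld-7 had 320, against 0 counts for the first 3 and 1 count for irld-7 in the 4 early ones. Pooled late counts in the OP50 course were 571 for irld-4, 568 for irld-18, 440 for irld-57 and 789 for irld-7, against 2, 2, 8 and 1 early counts. In no case did a late library of a course overlap an early one. The edgeR quasi-likelihood adjusted p for linear time lay between 8.24e-07 and 0.0015 for the 9 genes in the NA22 course and between 2.12e-09 and 3.72e-05 in the OP50 course. Each of these 18 calls held under the 9 other settings run on it and without each library in turn, except that irld-4 and irld-18 no longer met the count minimum when any 1 of 3 libraries was left out of the NA22 course. Because most of the 9 genes entered the test through late libraries, where they were high, these p-values and settings describe the rise and add no support.

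**Figure D2:**
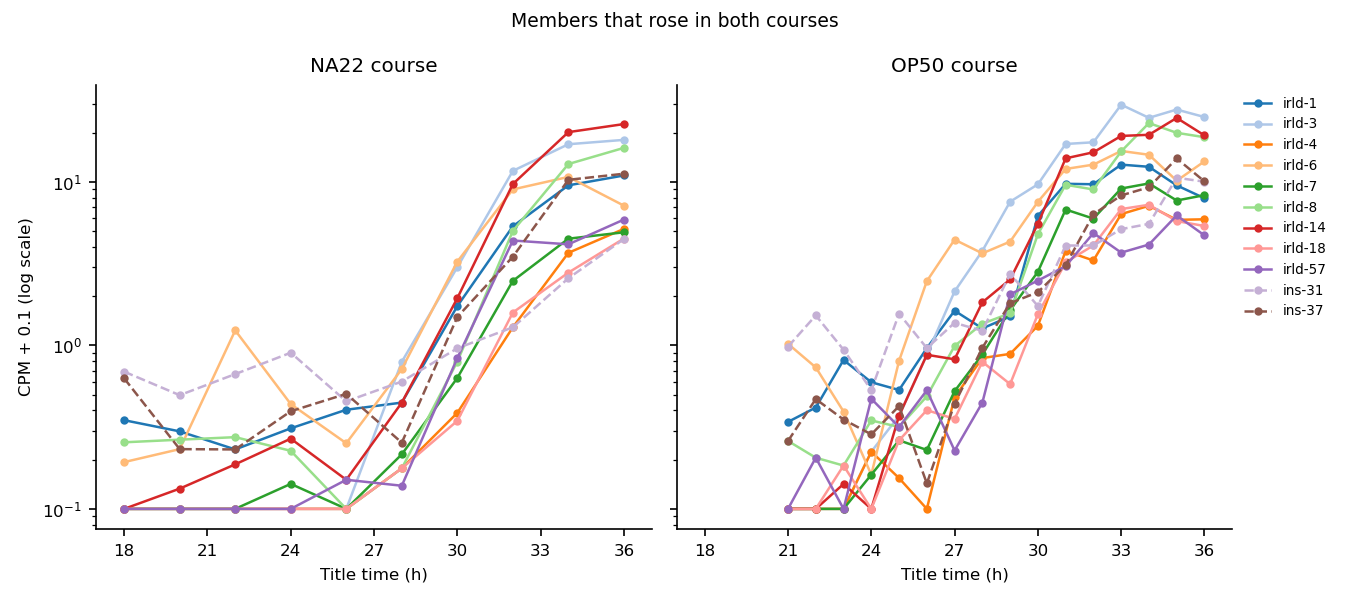
CPM + 0.1 on a log axis against title time, with 1 point per library, for the 9 irld genes (solid) and the 2 ins genes (dashed) that rose in both courses. NA22 libraries are on the left and OP50 libraries on the right. Late libraries stand above early ones for each of the 11 genes, and at 36 h in the NA22 course irld-3 reached 17.9 CPM and irld-14 22.4 CPM.

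The 9 genes climbed within a few hours of each other. The first library at or above 0.5 times a gene's highest CPM was taken at 32 or 34 h in the NA22 course and at 31, 32 or 33 h in the OP50 course. That time was 0 to 3 h later in the NA22 course, by title, across the 9 genes. The sperm markers spe-9, spe-11, spe-42, gsp-3 and gsp-4 reached 0.5 times their own highest level at 32 to 36 h in the NA22 course and at 30 to 33 h in the OP50 course, 1 to 4 h later in the NA22 course. Germline markers that are not of sperm rose as well, all 6 of them in both courses. Of these, pgl-1, glh-1, him-3 and htp-3 reached 0.5 times their highest level earlier than the irld genes, at 26 to 30 h in the NA22 course and at 24 to 30 h in the OP50 course. puf-5, an RNA-binding protein gene of oocytes, and rme-2, the yolk receptor gene of oocytes, reached it at 36 h in the NA22 course and at 35 h in the OP50 course. Late over early, puf-5 was 19.7-fold higher (15.4 to 25.7) in the NA22 course and 25.15-fold higher (20.9 to 30.6) in the OP50 course. gsp-3, which encodes a sperm phosphatase, had 5275 late counts and 1 early count in the NA22 course, and 6568 late and 8 early counts in the OP50 course. The part of the germline, with or without sperm, in the rise of the irld genes was not tested.

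The 9 rising irld genes lie on chromosomes IV and V, and none of them stands beside another member. irld-18 and irld-4 are separated only by dmd-6, a gene of the doublesex family, which did not rise: it ran from 23.1 to 76.8 CPM in the NA22 course and from 9.88 to 22.7 CPM in the OP50 course. Next to them in the annotation and in the count table are 16 genes that are not members, of which 12 were tested in both courses and 4 rose in both, beside 15% of all genes. These 4 were F02C9.1 beside irld-3, ule-2 beside irld-4, F42G8.8 beside irld-8 and sfxn-1.3 beside irld-57. All but F42G8.8 entered the test in the NA22 course through libraries from 30 h on alone, so this count is a description too. sfxn-1.3, a sideroflexin gene by name, had 16.3 CPM at 36 h and no count at 18 h in the NA22 course. irld-1 overlaps glrx-3, a glutaredoxin gene, on the annotation, and glrx-3 ran only from 67.3 to 81.5 CPM in the NA22 course and from 42.2 to 73.4 CPM in the OP50 course. irld-7 overlaps nspb-1 and nspb-2, which had no count in any library. Whether counts of overlapping genes are mixed was not tested.

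Among the peptide genes only ins-31 and ins-37 were called rising in both courses. In the OP50 course ins-37 met the count minimum only from 28 h on. In the NA22 course it met the minimum in 6 libraries, mainly those of 30 to 36 h, where it was high. Both calls of ins-37 are therefore a description. ins-37 had 1.39, 3.38, 10.2 and 11.1 CPM at 30, 32, 34 and 36 h in the NA22 course, against 0.528, 0.132, 0.131 and 0.295 CPM at 18, 20, 22 and 24 h. In the OP50 course it had 8.16, 9.15, 13.8 and 9.96 CPM at 33 to 36 h, against 0.16, 0.369, 0.252 and 0.185 CPM at 21 to 24 h. The late libraries lay above the early ones without overlap. Pooled, ins-37 was 23.3-fold higher late than early in the NA22 course (16.3 to 34.5) and 44.4-fold higher in the OP50 course (28.6 to 73.1). ins-31 rose less, by 3.97-fold (2.995 to 5.33) in the NA22 course and 8.88-fold (7.002 to 11.4) in the OP50 course. Its fitted change over 15 h was 2.42 ± 0.59 (log2, edgeR quasi-likelihood adjusted p = 0.00648) in the NA22 course and 3.97 ± 0.50 (5.73e-06) in the OP50 course.

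More peptide genes declined over the larval hours covered. Falling genes numbered 9 of 24 tested peptide genes in the NA22 course and 7 of 22 in the OP50 course, and 3 of 22 tested in both fell in both. Over all genes tested, 12.1% fell in the NA22 course, 12.7% in the OP50 course and 7.84% in both. The falling peptide genes include ins-1 and ins-4 in the NA22 course and ins-5 in the OP50 course. These entered the test there mainly through early libraries, where they were high, so the shares are a description. The median fitted change of the tested peptide genes was -0.77 (log2 over 15 h) in the NA22 course and -0.88 in the OP50 course, while over all genes tested it was -0.06 in the NA22 course and 0.04 in the OP50 course. The 11 neuron markers summed to 245.5 CPM at 36 h, against 599.4 CPM at 18 h, in the NA22 course and to 253.1 CPM at 36 h, against 503.5 CPM at 21 h, in the OP50 course, and 8 of them fell in both courses. The part of the neurons in the decline of the peptide genes was not tested.

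The 3 peptide genes that fell in both courses were ins-30, ins-14 and ins-5. ins-30 is the second most abundant peptide transcript by length-scaled level. It had 7.98, 6.17, 5.24 and 3.85 CPM at 30, 32, 34 and 36 h in the NA22 course, against 15.7, 14.3, 15.9 and 12.3 CPM at 18, 20, 22 and 24 h. The last 4 libraries of the OP50 course had 3.31, 4.24, 2.27 and 3.01 CPM, against 9.37, 6.96, 7.6 and 9.03 CPM in the first 4. No late library reached an early one in either course. The fitted change of ins-30 was -1.70 ± 0.14 (log2 over 15 h, edgeR quasi-likelihood adjusted p = 2.37e-05) in the NA22 course and -2.11 ± 0.28 (1.16e-05) in the OP50 course. That of ins-14 was -1.65 ± 0.34 (0.00421) in the NA22 course and -1.92 ± 0.50 (0.00501) in the OP50 course.

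ins-5 changed by -3.23 ± 0.52 (log2 over 15 h, edgeR quasi-likelihood adjusted p = 0.00119) in the NA22 course and by -2.93 ± 0.82 (0.00695) in the OP50 course, where it met the count minimum in 6 of the first 8 libraries and 1 of the last 8. The other genes of its run on chromosome II were called less widely. ins-4, which encodes an agonist of DAF-2, fell in the NA22 course (-2.10 ± 0.68, adjusted p = 0.0323) and was not called in the OP50 course (-0.85 ± 0.42, adjusted p = 0.10). ins-6, an agonist known for promoting exit from the dauer stage, fell in the NA22 course (-1.10 ± 0.35, adjusted p = 0.0376), with -0.52 ± 0.52 (0.426) in the OP50 course. ins-3 had -0.38 ± 0.24 in the NA22 course and 0.39 ± 0.25 in the OP50 course and was called in neither. ins-2 stayed at or under 0.0852 CPM in the NA22 course and 0.28 CPM in the OP50 course and was not tested. The calls of ins-4 and ins-6 in the NA22 course rested on few libraries. There ins-4 met the count minimum in 5 of the first 5 libraries and 2 of the last 5, so it entered the test mainly through libraries where it was high. Without the library of 18, 30, 32 or 34 h ins-4 lost its call (adjusted p up to 0.18), and ins-6 lost it without any 1 of 7 libraries (adjusted p up to 0.163).

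The remaining falls were called in 1 course. The genes daf-28, ins-1, ins-10 and ins-22 fell in the NA22 course and were untested or not called in the OP50 course. daf-28, an agonist made in sensory neurons that promotes reproductive growth, had 0.859, 0.632, 0.639 and 0.55 CPM at 30 to 36 h in the NA22 course, against 1.49, 1.48, 1.13 and 1.01 CPM at 18 to 24 h (fitted change -1.23 ± 0.23, edgeR quasi-likelihood adjusted p = 0.00249). ins-1, which encodes an antagonist of DAF-2 signalling, changed by -1.73 ± 0.48 (adjusted p = 0.0142) and was not called without the 36 h library (adjusted p = 0.0726). It reached 10 scaled counts only in the 3 libraries from 18 to 22 h, so it entered the test through the libraries where it was high and its call supports nothing. For ins-10 the change was -1.76 ± 0.33 (0.00217). ins-22 changed by -1.30 ± 0.34 (0.0111) and lost the call without the 18 h or the 36 h library (adjusted p up to 0.079). With limma on the deposited log2 values, where the 8 added counts reduce changes of low genes, the NA22 calls of daf-28, ins-1, ins-4, ins-6 and ins-22 were lost, and with DESeq2 that of ins-1.

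Falls called in the OP50 course alone were those of ins-9, ins-18, ins-26 and ins-33. ins-33, which with ins-3 is known to promote germline proliferation in larvae, changed by -2.24 ± 0.43 (edgeR quasi-likelihood adjusted p = 0.000858) there, beside -1.67 ± 0.70 (0.0933) in the NA22 course. ins-18, an antagonist, changed by -1.92 ± 0.40 (0.000764) in the OP50 course and by -0.92 ± 0.28 (0.0261) in the NA22 course, which is under the minimum of 1. For ins-9 the change in the OP50 course was -1.30 ± 0.26 (0.000568). The most abundant peptide transcript, ins-27, was called in neither course. It ran from 17.46 to 39.1 CPM in the NA22 course. In the OP50 course it had 9.13 CPM at 29 h, 5.45 at 35 h and 4.29 CPM at 36 h beside 19.1 to 42.1 CPM in the other 13 libraries. ins-35, an intestinal peptide, had 8.99, 6.22 and 1.72 CPM at 32, 34 and 36 h in the NA22 course, and 2.75, 2.1, 0.879, 0.372 and 0.0885 CPM from 32 to 36 h in the OP50 course after 2.63 to 7.48 CPM before. The linear fit did not call it (-2.26 ± 0.82, adjusted p = 0.057 in the OP50 course).

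**Figure D3:**
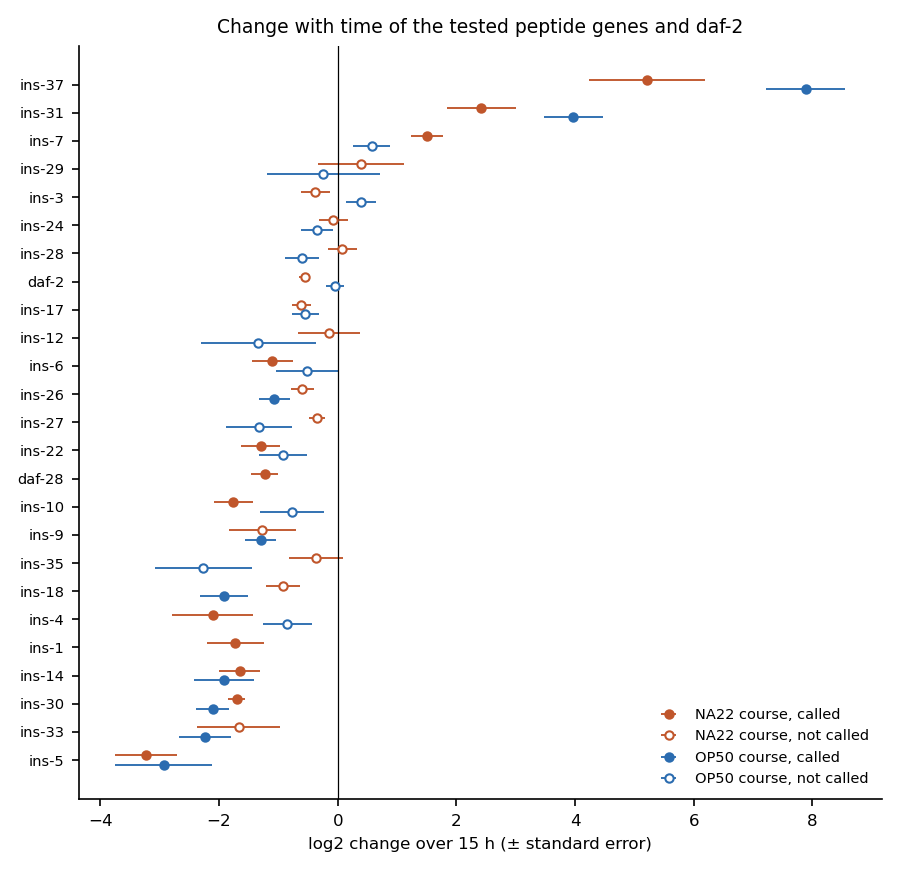
Fitted log2 change over 15 h with its standard error for the tested peptide genes and daf-2. Filled points passed both the adjusted p and the minimum of 1, open points did not, and NA22 stands above OP50 for each gene. ins-37 and ins-31 lie to the right in both courses, and ins-5, ins-30 and ins-14 to the left.

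The irld genes that fell did so at low levels and in 1 course each. irld-2, irld-11 and irld-40 fell in the NA22 course, and irld-21, irld-24 and irld-34 in the OP50 course. irld-11 and irld-40 met the count minimum in 3 and 4 NA22 libraries, none after 26 h, and the OP50 genes in at most 2 of the last 8 libraries. Apart from irld-2 they thus entered the test mainly through early libraries where they were high, and these calls are a description. The number that fell in both was 0 by edgeR, by DESeq2 and by limma, and the number with an unadjusted p under 0.05 for a fall in both was 2 by edgeR, 1 by DESeq2 and 2 by limma. Whether a trend differed between the courses was tested by itself, as the interaction of course and linear time over all 26 libraries. It was called for 0 of the 43 members tested by edgeR, by DESeq2 and by limma. An unadjusted p under 0.05 was reached by 8 members with edgeR, 9 with DESeq2 and 11 with limma. Over all genes, 0.156% had a higher and 0.305% a lower called trend in the NA22 course. A fall called in only 1 course is therefore not shown to differ from the other course.

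Some members cycled with the 8 h rhythm that accompanies molting. In the NA22 course 5 of 40 tested members (12.5%) were called oscillating, beside 21% of all genes tested. In the OP50 course 8 of 41 (19.5%) were called, near the 22.8% of all genes. In both courses 2 of 37 members, ins-12 and ins-4, were called, beside 16.5% of all genes. The peak-to-trough difference of ins-12 was 4.42 ± 0.73 (log2, edgeR quasi-likelihood adjusted p = 0.00438) in the NA22 course, where it ran from 0 to 1.15 CPM, and 3.93 ± 0.86 (0.00183) in the OP50 course, where it ran from 0 to 7.28 CPM. Its high points were at 20, 28 and 36 h in the NA22 course, with 1.15, 0.654 and 0.722 CPM, and at 26 and 34 h in the OP50 course, with 7.28 and 2.27 CPM. In the NA22 course it had 35, 17 and 21 counts at these high points and at most 9 in any other library. ins-12 thus entered that test mainly through its peaks, and the NA22 call is a description. The fitted peak within the cycle from 24 to 32 h lay at 28.4 h in the NA22 course and at 26.0 h in the OP50 course.

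ins-4 had 4.76 CPM at 24 h, 3.51 CPM at 18 h and 1.23 CPM at 32 h in the NA22 course, and at most 0.818 CPM in the other 7 libraries. In the OP50 course it had 2.44 and 2.21 CPM at 21 and 22 h and 1.78 CPM at 29 h, and 0.929 CPM again at 36 h after 0.259 to 0.32 CPM from 32 to 35 h. Its swing was 2.60 ± 0.73 (log2, edgeR quasi-likelihood adjusted p = 0.0498) in the NA22 course and 2.75 ± 0.36 (4.68e-05) in the OP50 course. In the OP50 course ins-4 had 3 to 8 counts in the libraries of 24 to 26 h and of 32 to 35 h. It thus entered that test mainly through its peaks, and the OP50 call is a description. The NA22 call was lost without any 1 of 8 libraries (adjusted p up to 0.243). It was lost as well in 5 of 9 other settings, namely both other periods, the size factors of DESeq2, limma, and no count filter. ins-5, next to it, was called in the NA22 course alone (1.98 ± 0.54, 0.045), with 1.70 ± 0.67 (0.143) in the OP50 course, and lost that call without any 1 of 7 libraries (adjusted p up to 0.147) and in 5 of 9 other settings. Fitted peaks of ins-4 and ins-5 lay close together, at 24.1 and 24.5 h in the NA22 course and at 29.3 and 29.5 h in the OP50 course.

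Other cycles were called in 1 course. Whether a cycle differed between the courses was not tested, so a cycle called in only 1 course is not shown to differ. ins-7, an agonist that is expressed in the intestine and repressed by DAF-16, swung by 2.08 ± 0.31 (log2, edgeR quasi-likelihood adjusted p = 0.00553) in the NA22 course and by 0.51 ± 0.26 (0.271) in the OP50 course. Its low points in the NA22 course were 0.218 CPM at 22 h and 0.45 CPM at 30 h, against 1.62 CPM at 26 h and 2.68 CPM at 34 h. ins-33 was called in the OP50 course (1.46 ± 0.35, 0.00928), where it was highest at 28 h and had 11.4 CPM at 29 h, against 5.42 CPM at 25 h and 1.19 CPM at 34 h. Its swing in the NA22 course was 1.83 ± 0.76 (0.24). ins-18 passed narrowly in the OP50 course (1.09 ± 0.34, 0.0465) and lost the call without any 1 of 11 libraries (adjusted p up to 0.103).

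Among the irld genes no cycle was called in both courses by edgeR, while 4 of 15 in the NA22 course and 5 of 18 in the OP50 course had an unadjusted p under 0.05. DESeq2 called 0 in the NA22 course and 4 in the OP50 course, and limma 0 in the NA22 course and 3 in the OP50 course. irld-57 was called by edgeR in the NA22 course (2.87 ± 0.57, adjusted p = 0.00606), but not without the 32 h library (adjusted p = 0.112). The call was also lost under both other periods, quadratic time, DESeq2 and limma, with swings down to 0.598. irld-57 had at most 1 count in each NA22 library before 30 h. irld-1, irld-21, irld-24 and irld-65 were called in the OP50 course. irld-21 swung by 2.06 ± 0.46 (0.00638) between 0.0915 and 0.764 CPM. Both irld-21 and irld-24 met the count minimum in only 6 OP50 libraries, mainly those where they were high. Their calls are therefore a description. The call of irld-1 (1.47 ± 0.40, 0.0233) was lost without the 31 h or the 35 h library (adjusted p up to 0.078).

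**Figure D4:**
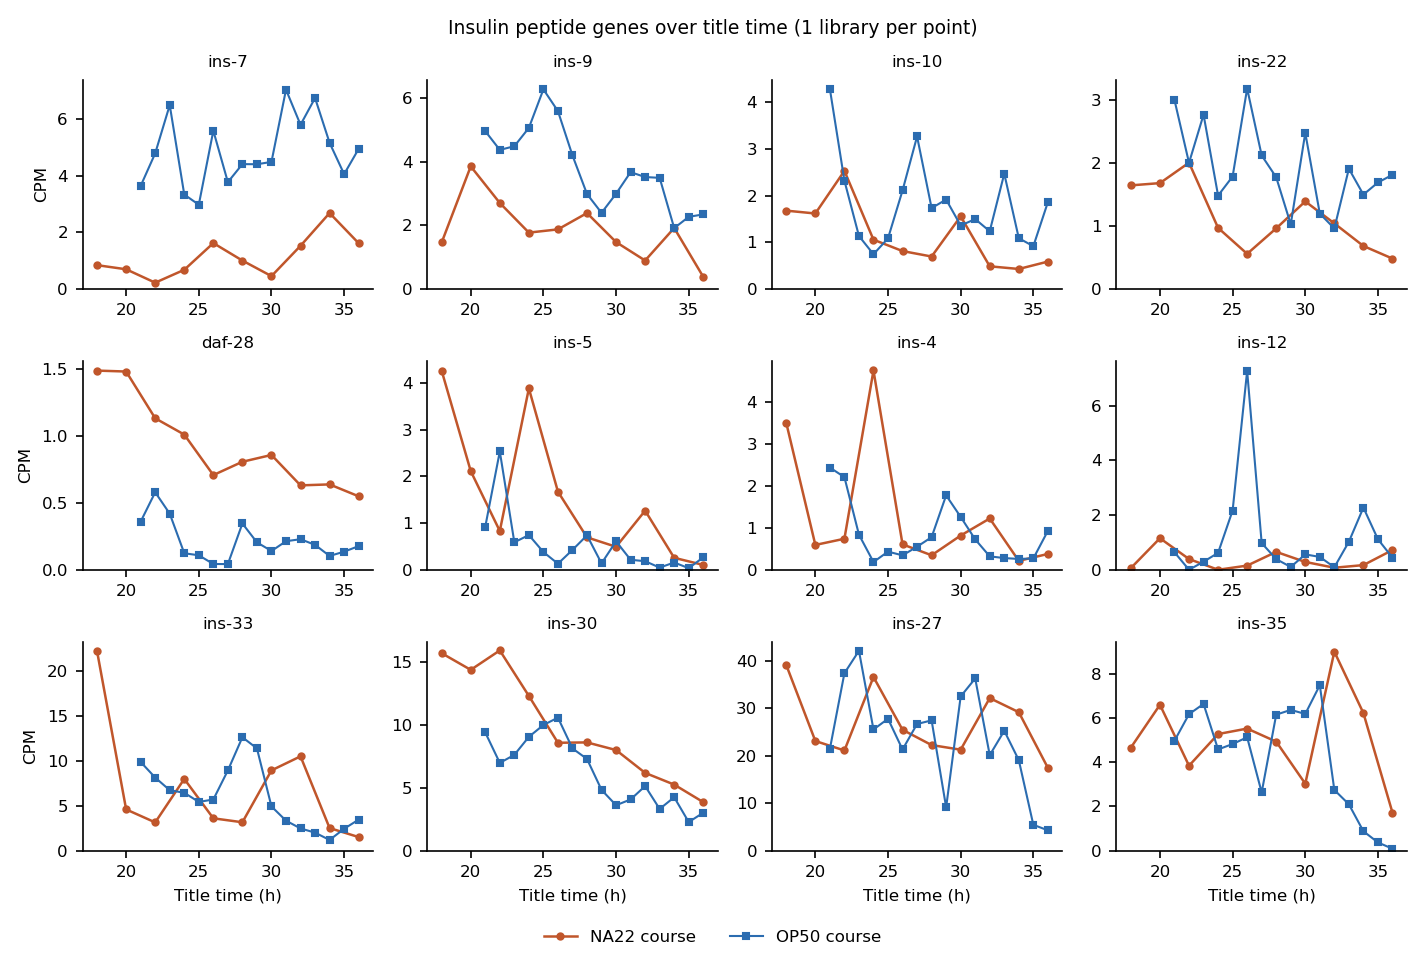
CPM against title time for 12 peptide genes, each axis starting at 0, with 1 point per library (circles NA22 course, squares OP50 course). ins-7 and ins-9 lie lower and daf-28 higher in the NA22 course, ins-4 and ins-12 show separate peaks, and ins-30 declines in both.

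The courses were compared with the OP50 libraries titled 3 h earlier, because earlier results of these data put the NA22 worms about that far behind the OP50 worms by title. This gives 7 pairs, from 24 to 36 h in the NA22 course and from 21 to 33 h in the OP50 course, with the pair as a block. Of 40 members tested, 2 were called higher and 7 lower in the NA22 course at an adjusted p under 0.05 and a size of 1 log2 unit or more. Over all genes tested, 4.86% were called higher and 8.06% lower. The median difference was -0.31 for the 40 members and -0.06 for all genes. With total counts as the only scaling the median over all genes moved by -0.28, 14.1% rather than 37.6% of the called genes were higher in the NA22 course, and 11 members were called lower. The deposited log2 values, used with limma as another test, are scaled to each course's own mean total and have 8 added to the count. On them the median over all genes moved by 0.17 toward NA22 and 68.4% of the called genes were higher there, so a lower call lost with limma is lost under a scaling that moves all genes. Both calls of higher level and 6 of the 7 calls of lower level were peptide genes. Of these, daf-28, ins-12 and the irld gene irld-21 met the count minimum mainly in the course where they were higher. The counts of members called are therefore a description.

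daf-28 was higher in the NA22 course. Its level ran from 0.55 CPM through a median of 0.709 to 1.01 CPM in the 7 NA22 libraries and from 0.0425 CPM through a median of 0.205 to 0.42 CPM in the 7 OP50 libraries. All NA22 values lay above all OP50 values. The difference was 1.75 ± 0.38 (log2, edgeR quasi-likelihood adjusted p = 0.00288) and it was positive in 7 of 7 pairs. daf-28 had 14 to 24 counts in each of these NA22 libraries and 1 to 10 in each of the OP50 ones. It thus met the count minimum mainly in the NA22 libraries, where it was high, and the call is a description. At equal title times, over the 8 times from 22 to 36 h that both courses share, daf-28 was the only member called higher, by 1.98 ± 0.35 (adjusted p = 0.00442) and in 8 of 8 pairs, where 1.79% of all genes were called higher. There it had 14 to 26 counts in the NA22 libraries and 1 to 11 in the OP50 ones, and the same limit holds.

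ins-5 was higher in the NA22 course in 7 of 7 pairs, with 1.19 ± 1.31 CPM in the NA22 libraries and 0.387 ± 0.299 CPM in the OP50 libraries (SD, n = 7 each), and the ranges overlapped. Its difference was 1.40 ± 0.37 (log2, edgeR quasi-likelihood adjusted p = 0.0089). At equal title times it was 0.72 ± 0.61 (adjusted p = 0.47) and not called, and its call 3 h apart was lost with limma (0.89) and with no block for the pair (adjusted p = 0.146).

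ins-7 had the largest difference of the 40 members tested, in the other direction. In the 7 NA22 libraries it had 0.45 CPM at the lowest, a median of 1.52 and 2.68 CPM at the highest, against 2.98, 4.41 and 7.05 CPM in the 7 OP50 libraries. The groups did not overlap. The difference was -1.98 ± 0.21 (log2, edgeR quasi-likelihood adjusted p = 7.92e-05), and the NA22 library was lower in 7 of 7 pairs. At equal title times the difference was -2.25 ± 0.35 (0.00311), where 7.74% of all genes were called lower. ins-7 was also the only member called rising in the NA22 course alone, by 1.51 ± 0.27 over 15 h (0.00185), and it stayed below every OP50 library at all 10 times.

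ins-9 had 1.53 ± 0.68 CPM in the 7 NA22 libraries and 4.22 ± 1.23 CPM in the 7 OP50 libraries (SD), and again the ranges did not overlap. It differed by -1.57 ± 0.23 (log2, edgeR quasi-likelihood adjusted p = 0.000409) in the pairs 3 h apart and by -1.22 ± 0.29 (0.018) at equal title times, where the call was lost with limma and its shift of all genes by 0.21. ins-10 had 0.801 ± 0.394 CPM in the NA22 libraries and 2.24 ± 1.19 CPM in the OP50 libraries, with overlapping ranges, and was lower in 7 of 7 pairs (-1.48 ± 0.26, 0.00103). ins-10 overlaps vps-39 on the annotation, whose level ran from 49.0 to 82.5 CPM in the NA22 course and from 55.3 to 98.2 CPM in the OP50 course, so the counts of the 2 genes may be mixed. ins-22 differed by -1.17 ± 0.28 (0.00647) and was lower in 6 of 7 pairs. Without the pair of 26 h its difference was -0.996, which is just under the minimum. On the deposited log2 values, with that shift of 0.17, the differences of ins-10, -0.998, and ins-22, -0.79, were under it too.

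The other lower members had low counts or strong swings. ins-12 differed by -1.50 ± 0.44 (log2, edgeR quasi-likelihood adjusted p = 0.0138), ins-29 by -1.38 ± 0.37 (0.00909) and irld-21 by -1.41 ± 0.45 (0.0204). The mean level of ins-12 was 0.294 CPM in the NA22 libraries and 0.811 CPM in the OP50 libraries, and that of ins-29 was 0.411 CPM in the NA22 libraries and 1.11 CPM in the OP50 libraries. For irld-21 the mean was 0.14 CPM in the NA22 libraries and 0.383 CPM in the OP50 libraries, and the call was lost without the pair of 28 or of 30 h (adjusted p up to 0.0682). irld-21 had at most 6 counts in any of these NA22 libraries and up to 18 in the OP50 ones. ins-12 had 17 and 21 counts in the NA22 libraries of 28 and 36 h and at most 7 in the others. Both entered the test mainly through the OP50 libraries, where they were high, so their calls are a description. On the deposited log2 values, with the same shift, all 3 calls were lost, with differences of -0.71 for ins-12, -0.72 for ins-29 and -0.495 for irld-21. They were lost too at equal harvest times, with adjusted p values of 0.0939, 0.425 and 0.14. Without the pair as a block ins-12 (0.199) and ins-29 (0.205) lost the call. None of ins-10, ins-12, ins-22, ins-29 and irld-21 was called at equal title times, where the adjusted p ran from 0.0501 to 0.444.

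**Figure D5:**
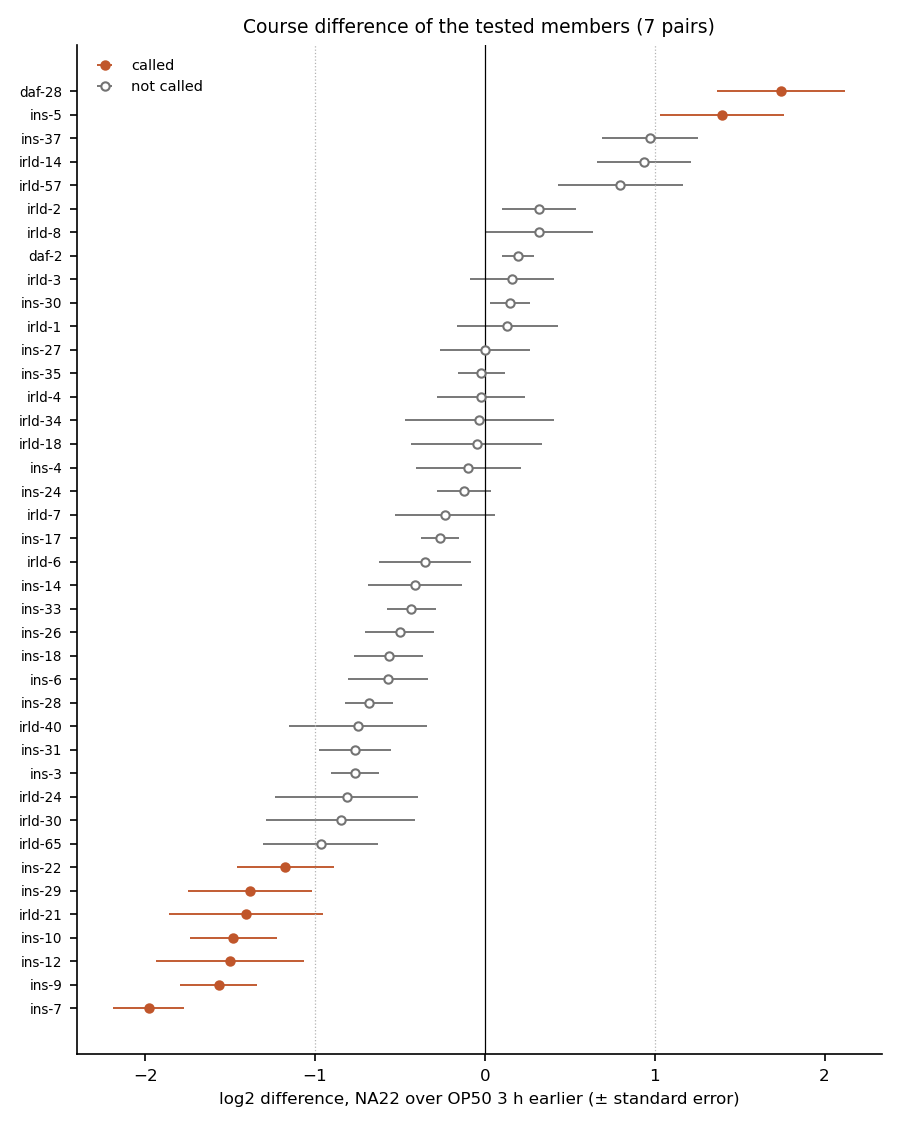
Log2 difference of the NA22 course over the OP50 course 3 h earlier, with its standard error, for the 40 members tested over 7 pairs. Filled points passed the adjusted p and the minimum of 1, marked by dotted lines. daf-28 and ins-5 lie highest, ins-7 and ins-9 lowest, and the rising irld genes lie between -0.35 and 0.94.

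Just under the minimum, ins-3, which is adjacent to ins-4, had 2.16 ± 0.23 CPM in the NA22 libraries and 3.64 ± 0.75 CPM in the OP50 libraries (SD, n = 7 each), a difference of -0.76 ± 0.14 (log2, edgeR quasi-likelihood adjusted p = 0.00148) with 7 of 7 pairs lower. irld-14 was higher in 7 of 7 pairs (0.94 ± 0.28, 0.017) and ins-37 in 6 of 7 (0.97 ± 0.28, 0.0159), and both missed the minimum. daf-2 differed by 0.20 ± 0.09 (0.104), and the most abundant peptide, ins-27, by 0.00 ± 0.27 (0.999).

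Of the 11 genes that rose late in both courses, 4 were called at equal title times and none in the pairs 3 h apart, although ins-31, irld-14 and ins-37 passed the adjusted p there and stayed under the minimum of 1. Over all genes tested, 1.79% were called higher and 7.74% lower at equal title times. The shares in the pairs 3 h apart were 4.86% higher and 8.06% lower. That offset was chosen with earlier results of these data known, so these counts are a description. At equal title times irld-1, irld-7 and irld-18 were called lower in the NA22 course, by -1.01 ± 0.29 (log2, edgeR quasi-likelihood adjusted p = 0.0342), -1.57 ± 0.38 (0.0185) and -1.75 ± 0.52 (0.0452), together with ins-31 at -1.04 ± 0.26 (0.0202). Against OP50 libraries 3 h earlier the same genes had differences of 0.13 ± 0.30 (0.741), -0.23 ± 0.30 (0.534), -0.05 ± 0.39 (0.927) and -0.76 ± 0.21 (0.0126), and none was called. Over the 16 irld genes tested the median was -1.04 at equal title times and -0.04 in the pairs 3 h apart. The calls at equal times were lost without 1 pair for irld-1 (any 1 of 6 pairs, adjusted p up to 0.0861), irld-7 (the pair of 30 h, 0.0544), irld-18 (any 1 of 5 pairs, up to 0.113) and ins-31 (any 1 of 3 pairs, up to 0.0549). All 4 calls were also lost with no block for the pair, and that of irld-1 with DESeq2 as well. They were lost with limma too, on values where the median over all genes moved by 0.21 toward NA22.

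Of 15 genes of the receptor pathway, all tested in both courses, 2 fell in both, beside the 7.84% of all genes given above. The number that rose in both was 0 by edgeR, DESeq2 and limma, with 2, 2 and 1 at an unadjusted p under 0.05. The 2 that fell were ist-1, which encodes an insulin receptor substrate, with -1.94 ± 0.33 (log2 over 15 h, edgeR quasi-likelihood adjusted p = 0.00192) in the NA22 course and -1.67 ± 0.31 (0.000419) in the OP50 course, and the kinase gene pdk-1, with -1.33 ± 0.20 (0.000811) in the NA22 course and -1.28 ± 0.23 (0.000254) in the OP50 course. The AKT gene akt-2 was called falling in the NA22 course and not in the OP50 course. The other AKT gene, akt-1, had a fitted change of -0.20 ± 0.16 (0.339) in the NA22 course and 0.88 ± 0.13 (2.51e-05) in the OP50 course, and this difference in trend was called (-1.025 ± 0.21, 0.0284). In the comparison with OP50 3 h earlier, 0 of the 15 were called by edgeR, 0 by DESeq2 and 1 by limma, although 10 had an unadjusted p under 0.05 with edgeR and 9 an adjusted one. daf-16 ran from 60.8 to 102.0 CPM in the NA22 course and from 42.9 to 60.4 CPM in the OP50 course, and its difference was 0.38 ± 0.08 (0.0023), under the minimum of 1.

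Of 12 genes for processing and release of peptide hormones, 2 fell in both courses by edgeR, 1 by DESeq2 and 3 by limma, where 7.84% of all genes fell in both. By edgeR they were egl-3, a proprotein convertase that cleaves neuropeptide precursors, with -1.06 ± 0.09 (log2 over 15 h, edgeR quasi-likelihood adjusted p = 3.32e-05) in the NA22 course and -1.13 ± 0.10 (1.83e-07) in the OP50 course, and unc-31, needed for dense-core vesicle release, with -1.20 ± 0.15 (0.000208) in the NA22 course and -1.03 ± 0.19 (0.00028) in the OP50 course. The median change of the 12 genes was -0.71 in the NA22 course and -0.62 in the OP50 course. Of the 11 neuron markers 8 fell in both courses, with a median change of -1.28 in the NA22 course and -1.14 in the OP50 course, and their part in these falls was not tested.

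Of 12 genes of the dauer pathway that runs beside insulin, 9 fell in the NA22 course, 6 in the OP50 course and 6 in both, where 12.1%, 12.7% and 7.84% of all genes did. The neuron markers moved the same way, as 9 of 11 fell in the NA22 course and 8 in the OP50 course, and their part was not tested here either. The 6 included daf-7, the TGF-beta ligand made by sensory neurons (-1.94 ± 0.10, edgeR quasi-likelihood adjusted p = 1.75e-06, in the NA22 course and -1.80 ± 0.26, 3.8e-05, in the OP50 course). Its receptor gene daf-4, the guanylyl cyclase gene daf-11 and the channel gene tax-2 fell in both as well. The nuclear receptor gene daf-12 and the cytochrome P450 gene daf-9, which makes its hormone, fell in both, daf-9 by -2.69 ± 0.51 (0.00578) in the NA22 course and by -3.94 ± 0.37 (4.98e-07) in the OP50 course. daf-12 changed by -2.95 ± 0.21 (1.28e-05) in the NA22 course and by -1.74 ± 0.15 (7.23e-08) in the OP50 course, and its trend was the only one of the 12 that edgeR called different between the courses (-1.15, adjusted p = 0.0331).

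Among 14 genes known as DAF-16 targets, 13 were tested. Between the courses, in pairs 3 h apart, 1 was higher and 2 were lower in the NA22 course, where 4.86% of all genes were higher and 8.06% lower. The metallothionein gene mtl-2 ran from 11.01 to 27.0 CPM in the NA22 course and from 58.3 to 159.5 CPM in the OP50 course, and differed by -2.46 ± 0.11 (log2, edgeR quasi-likelihood adjusted p = 2.16e-06). dod-24 differed by -1.11 ± 0.15 (0.000308). The small heat shock protein gene sip-1 was higher, by 1.65 ± 0.12 (1.13e-05), and rose with time in both courses. Called oscillating in both were 1 of the 13 by edgeR, dod-22, and 2 each by DESeq2 and by limma, where edgeR called 16.5% of all genes. The trends of mtl-1, another metallothionein gene, and lys-7, a lysozyme gene, were called different between the courses. mtl-1 changed by -0.32 ± 0.25 (log2 over 15 h) in the NA22 course and by 3.39 ± 0.67 in the OP50 course (difference -3.66, edgeR quasi-likelihood adjusted p = 0.0325). lys-7 changed by -0.67 ± 0.11 in the NA22 course and by 1.58 ± 0.20 in the OP50 course (difference -2.185, 0.000146).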

How the data were processed

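The members were taken by name alone, but the rule for the names and the gene lists were set with earlier results of these data known. The authors deposited raw counts per gene for 26 libraries and a table of log2 values, which match, to within 5.0e-05, log2 of 8 plus the count after scaling each library to its course's mean total. Which aligner, counting tool, strand setting, genome build or annotation was used is not given in the sources used here. Names were joined by WormBase identifier for 18778 genes. Neighbours, overlaps and coding lengths (longest coding transcript) come from the WBcel235 annotation, and no coordinates or sequences are given.

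Counts were fitted in edgeR 4.0.16 (R 4.3.3; TMM factors, quasi-likelihood F tests with robust dispersion) over all genes for which 3 or more libraries held at least 10 counts after scaling to the median library size, with Benjamini-Hochberg adjustment over all genes of a fit. The curve for each course had a linear term in time and a sine and cosine with a period of 8 h. The fit does not allow for neighbouring times that deviate together. Courses were compared in 7 pairs of times 3 h apart and at 8 equal title times, with the pair as a block, and by an interaction of course and time. Libraries of a pair share no animals. The values of 1 gene of the receptor pathway are not reported here. Ratios of pooled counts have 95% counting intervals, and intervals and floors cover counting error only, as reads carry no molecular identifiers.

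The text names daf-2, daf-28, ins-1, ins-3, ins-4, ins-6, ins-7, ins-18, ins-33, ins-35 and ins-37, members called in both courses or in the comparison 3 h apart, and the 5 ins and 5 irld genes with the highest mean CPM. Other members, marker genes and neighbours that the text names were chosen after their values were seen. Alternatives were periods of 7 and 9 h, quadratic time, no filter on counts, scaling by total counts or by the size factors of DESeq2, tests with DESeq2 1.42.0 or with limma 3.58.1 on the deposited log2 values, a minimum of 0.5, no block, equal harvest times and each library or pair left out. The scripts were tested on simulated data.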

Additional observations from a re-analysis of the deposited data

Results flagged for a closer look

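Of 41 groups of 7 or 10 values screened for a single value far from the rest, 4 held one. The groups of 10 were the NA22 libraries of a gene and those of 7 the pair differences, and the OP50 course was not screened by itself. The limit used gives about 1 in 20 for independent values of 1 normal distribution. Levels that trend or cycle over successive times are not of that kind, so the number flagged cannot be set against it. For ins-29 the pair of 32 h had a log2 difference of 1.08 (NA22 over OP50 3 h earlier, with 0.1 CPM added), while the other 6 pairs lay at -1.13 or lower. The OP50 library of that pair, 29 h, had no ins-29 count, and the NA22 library had 0.112 CPM. For ins-9 the pair of 36 h had a log2 difference of -2.91, and the nearest pair had -1.45. The NA22 library of that pair had the lowest ins-9 level of its course, 0.378 CPM. ins-31 had 4.37 CPM at 36 h in the NA22 course, and the next highest library had 2.47 CPM. ins-33 had 22.1 CPM at 18 h in the NA22 course, the first library of the course, and the next highest had 10.5 CPM.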

How the results depend on the processing

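Of 571 values of the 66 named calls under other settings, 507 kept the call, 64 lost it and 0 reversed; of 754 values with 1 library or pair left out, 693 kept it and 61 lost it. Members called oscillating in the NA22 course numbered 5, but 0 with a 7 h or a 9 h period (10 and 8 at an unadjusted p under 0.05), 2 with limma, 3 without the count filter and 3 with quadratic time. Over all genes the calls there numbered 3147, but 36 with a 7 h and 0 with a 9 h period (4189 and 3513 at an unadjusted p under 0.05). In the OP50 course they numbered 8, but 3 with a 7 h period, beside 2054 in place of 3619 over all genes. Members falling in the NA22 course numbered 12, but 6 with limma. Against OP50 3 h earlier, members called higher numbered 2, but 1 with limma, 1 with no replicate block for the pair and 4 at a minimum of 0.5, and members called lower 7, but 2 with limma, 12 at a minimum of 0.5 and 11 with total counts. At equal title times members called lower numbered 6, but 1 with limma, 3 with no replicate block for the pair and 13 with total counts. The causes were not tested. With 1 library left out, oscillating members numbered 2 to 5 in the NA22 course, the fewest without 32 h. With 1 pair left out, members called higher against OP50 3 h earlier numbered 2 to 4, the most without the pair of 36 h, and members called lower at equal title times 3 to 7, the fewest without the pair of 26 h or of 30 h. Rising members, falling members in the OP50 course and the trend difference stayed within 1.5 times their count.

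The share of higher calls among all genes called moved with the scaling. Against OP50 3 h earlier it was 37.6% with TMM, 14.1% with total counts and 68.4% with limma, and at equal title times 18.8% with TMM, 6.13% with total counts and 59.2% with limma. The median over all genes moved by -0.28 and -0.25 (log2) with total counts and by 0.17 and 0.21 with limma in those 2 comparisons, and by -0.13 in the OP50 trend. ins-7, ins-9 and daf-28 kept their calls against OP50 3 h earlier under all 8 other settings, although daf-28 entered that test mainly through its NA22 libraries. Calls under 1 CPM rest on few counts.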

Other observations

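In the OP50 course ins-27 and ins-35 left their earlier range late. ins-27 had 5.45 and 4.29 CPM at 35 and 36 h and a single low library at 29 h, 9.13 CPM, between 27.4 CPM at 28 h and 32.5 CPM at 30 h. ins-35 had less in each OP50 library after 31 h than in the one before, with 0.0885 CPM at 36 h against 7.48 CPM at 31 h, and had 1.72 CPM at 36 h in the NA22 course. Neither gene was called rising or falling. The irld gene irld-65, within the run of 7 irld genes on chromosome II, had 2.12, 3.01 and 1.59 CPM at 34 to 36 h in the OP50 course, against at most 1.36 CPM before, and at most 0.801 CPM in the NA22 course. These genes were picked after their values were seen. In the pairs 3 h apart the last NA22 library, 36 h, stood against the OP50 library of 33 h. Later OP50 libraries had no NA22 counterpart there.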
